A study of Caenorhabditis elegans with 36 samples.

Results

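The genes described here encode the peroxisomal beta-oxidation enzymes that shorten the fatty side chains of ascarosides, the pheromones of the nematode C. elegans. The set holds 10 genes of the 46926 that the deposited tables list: the acyl-CoA oxidase genes acox-1.1, acox-1.2, acox-1.3, acox-1.4, acox-1.5, acox-1.6 and acox-3, the enoyl-CoA hydratase gene maoc-1, the 3-hydroxyacyl-CoA dehydrogenase gene dhs-28 and the thiolase gene daf-22. They were taken by name, except that acox-1.3 and acox-1.4 were selected on their measured fall in xnp-1 animals. Values of these 2 genes are descriptions without a test wherever libraries labelled xnp1 or xnp-1 alone enter, and in xnp-1;gsox-1 against N2. They were tested in N2 L1 larvae against N2 embryos, in gsox-1 against N2 and in xnp-1;gsox-1 against gsox-1. Where N2 libraries enter, those tests are not independent of the selection. All 10 passed the filter on low counts in both tables, acox-1.4 with at most 17 counts in any embryo library.

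Poly(A) RNA of pooled whole animals was sequenced in 24 libraries, in 8 groups of 3 that the labels call biological replicates. Embryos and L1 larvae (the first larval stage) grown at 20 °C were labelled xnp1 or, as their reference, N2, the laboratory wild type. The L1 larvae were embryos held for about 11 h in M9 buffer, so they were not fed. L4 larvae (the last larval stage) grown at 25 °C were labelled xnp-1;gsox-1, xnp-1, gsox-1 or N2. xnp-1 is the nematode counterpart of ATRX, a chromatin remodeller, and gsox-1 is listed in the gene table as F33H1.4. The study's design text calls the embryos and L1 larvae a knockdown and the L4 larvae mutants, and the labels name no allele, RNAi clone or promoter. Apart from the xnp-1 and gsox-1 alterations no background allele is labelled.

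In each round of peroxisomal beta-oxidation an acyl-CoA oxidase introduces a double bond, the MAOC-1 hydratase adds water, the DHS-28 dehydrogenase oxidises the product and the DAF-22 thiolase cleaves off acetyl-CoA. Repeated rounds turn very long side chains into the short ones of the dauer pheromone, by which crowded young larvae enter a resting stage. The oxidases work as dimers with different substrate preferences: ACOX-1.1 pairs with itself or with ACOX-1.3, and ACOX-1.2 pairs with itself. Much of this synthesis is placed in the intestine.

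Totals ran from 29896459 to 41520291 fragments per library in embryos and L1 larvae and from 39004451 to 45391494 reads at L4, where both mates of a pair could be counted, so the 2 tables were fitted apart. The genotype check held at embryos, where xnp-1 was at 131.4 ± 7.71 CPM (counts relative to the TMM-scaled library size) in xnp1 libraries, against 401.1 ± 28.0 CPM in N2 (SD, n = 3 each; edgeR quasi-likelihood test with Benjamini-Hochberg adjustment, log2 change -1.61, adjusted p = 5.98e-05). In L1 larvae the difference in xnp-1 did not pass (log2 change -0.55, adjusted p = 0.135). At L4 xnp-1 was lower in xnp-1 animals (log2 change -0.71, adjusted p = 0.0131) and in xnp-1;gsox-1 animals (-1.36, adjusted p = 0.0124) than in N2. gsox-1 RNA was not lower in gsox-1 libraries than in N2 (log2 change 0.46, adjusted p = 0.882), so its level does not check that label. The 3 xnp-1 L4 libraries stood apart from the other 9 on the first principal component, at 143.8 to 173.5 against -74.4 to -40.4, and that component held 62% of the variance.

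acox-1.1 to acox-1.4 sit in tandem on the plus strand of chromosome I (coordinates of the WS280 gene set in the tables). acox-1.1 (WBGene00008564) spans 12938555 to 12942227, acox-1.2 (WBGene00008565) 12942280 to 12946588, acox-1.3 (WBGene00008566) 12946932 to 12951099 and acox-1.4 (WBGene00008567) 12951134 to 12954003. Only 52, 343 and 34 bases separate neighbours, and the end of acox-1.4 overlaps F08A8.8 on the other strand, which strand-specific counting keeps apart. Sequence likeness among the 4, or with the other acyl-CoA oxidase genes, was not measured here. Reads that fit several oxidase genes could be missing or misplaced, which would make the value of each less certain. acox-1.5 (WBGene00008167, chromosome III, 9586618 to 9592192), acox-1.6 (WBGene00010336, X, 15834072 to 15838546), acox-3 (WBGene00019060, IV, 6245358 to 6248492), daf-22 (WBGene00013284, II, 12423518 to 12425694), maoc-1 (WBGene00017123, II, 7196276 to 7197495) and dhs-28 (WBGene00000991, X, 6818438 to 6820080) lie elsewhere. Counts were summed over the exons of each gene.

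Per length of transcript (TPM), the enzymes of the later steps were more abundant than any oxidase in N2 embryos. dhs-28 led with 225.4 ± 2.21 TPM, followed by daf-22 with 153.8 ± 19.7 and maoc-1 with 98.5 ± 3.26 (SD, n = 3). acox-3 came next at 90.3 ± 5.84 TPM, and its libraries overlapped those of maoc-1. acox-1.1 (53.9 ± 7.42 TPM) and acox-1.6 (53.6 ± 3.86) overlapped, and acox-1.5 lay at 29.1 ± 3.80. At the low end acox-1.3 (4.14 ± 0.443 TPM) and acox-1.2 (3.99 ± 1.38) overlapped, and acox-1.4 was lowest at 0.358 ± 0.0968 TPM. In N2 L4 larvae dhs-28 (203.9 ± 41.3 TPM) and daf-22 (174.1 ± 26.8) again led, with overlapping libraries, and maoc-1 stood at 102.0 ± 27.2. There acox-1.2 (74.2 ± 14.8 TPM) and acox-1.4 (70.1 ± 13.8) were 4th and 5th in the order, while acox-1.3 was last at 3.51 ± 0.661 TPM. Embryo and L4 levels come from separately made tables and were not tested against each other.

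**Figure D1:**
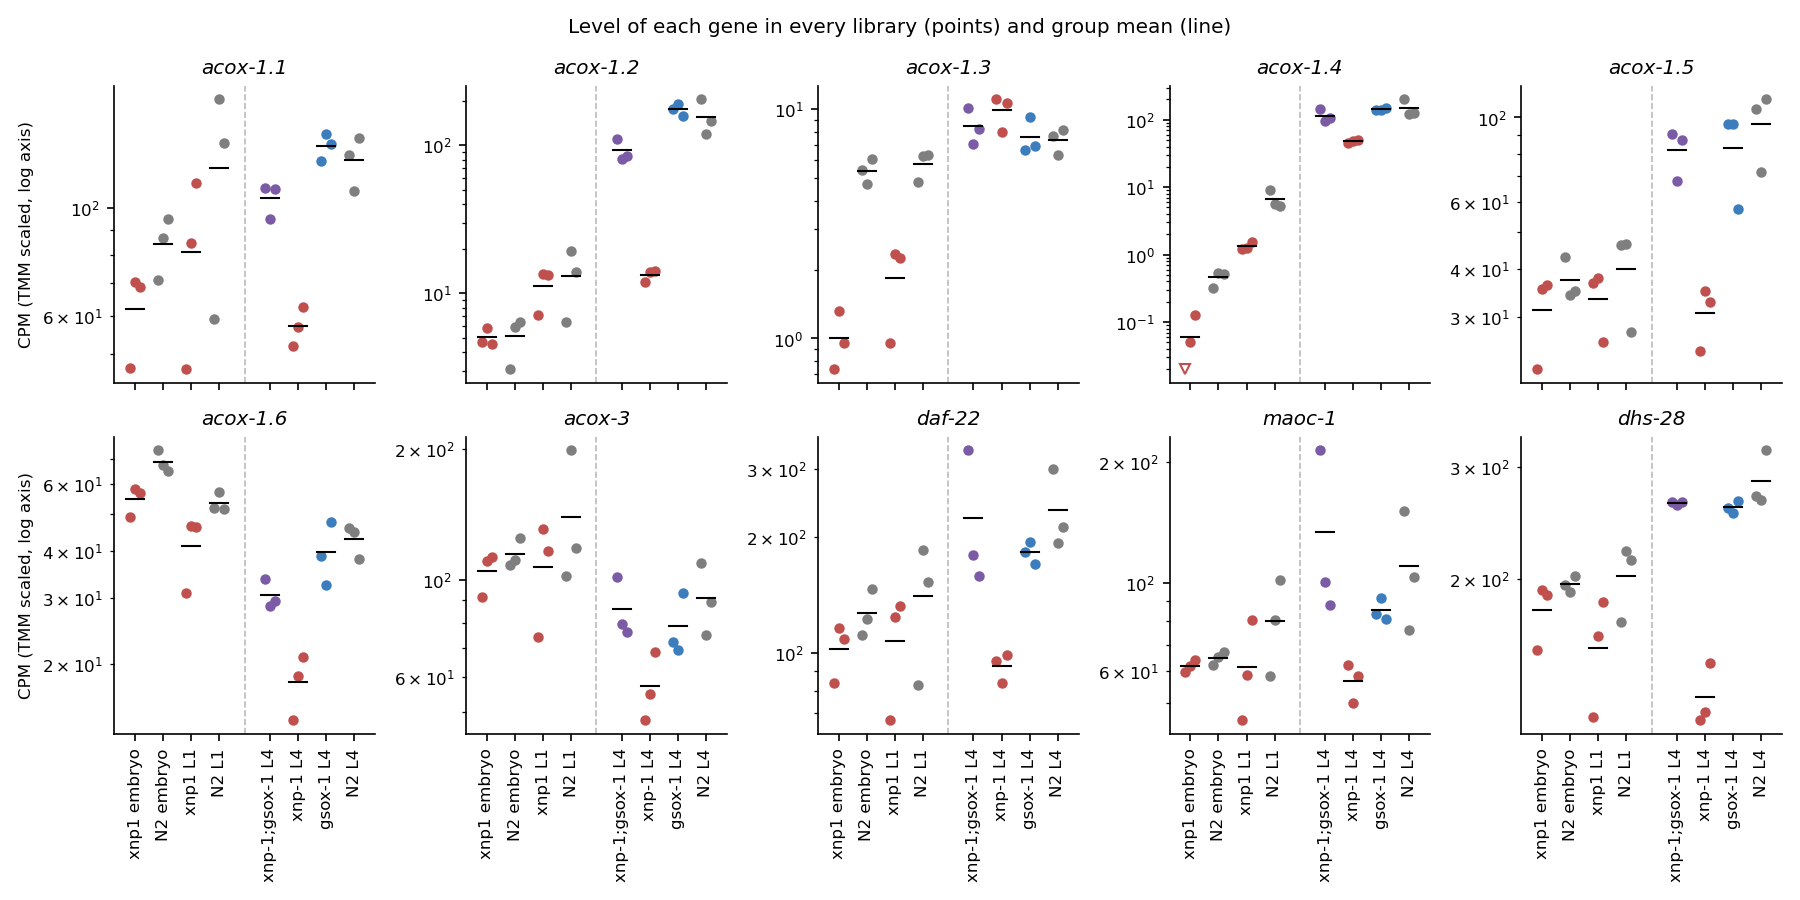
CPM (TMM scaled within each table, log axis) of each gene in every library, with 3 points per group and a line at the group mean; the dashed line parts the 2 tables, and the open triangle stands for the xnp1 embryo library with 0 counts of acox-1.4. The xnp1 points of acox-1.3 and acox-1.4 lie below those of N2 in embryos and L1 larvae, and the xnp-1 points of acox-1.2 lie below all other groups at L4.

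In N2, acox-1.4 and acox-1.2 were higher in L1 larvae than in embryos, and the other members did not pass the test. acox-1.4 had 9.07, 5.57 and 5.34 CPM in N2 L1 larvae, against 0.316, 0.537 and 0.521 CPM in N2 embryos, a 14.6-fold rise (log2 change 3.87 ± 0.44 SE, adjusted p = 2.77e-05). acox-1.2 had 6.403, 19.3 and 13.8 CPM in N2 L1 larvae and 3.06, 5.88 and 6.39 CPM in N2 embryos (log2 change 1.37 ± 0.40 SE, adjusted p = 0.0113). The L1 libraries lay above the embryo libraries for both genes, for acox-1.2 by a small margin, and without N2 L1 replicate 2 acox-1.2 no longer passed (log2 change 1.00, adjusted p = 0.0510). Without N2 L1 replicate 1, which held the lowest acox-1.1 value, acox-1.1 passed as well (0.85, adjusted p = 0.0300). acox-1.3 had 5.80 ± 0.868 CPM in N2 L1 larvae and 5.40 ± 0.670 CPM in N2 embryos (adjusted p = 0.789). The fall that picked acox-1.3 and acox-1.4 was measured against N2, so their p-values in this contrast are not independent of that choice. The count of 2 of 10 members higher, acox-1.4 among them, and 0 lower stood beside 34.3% of all tested genes higher and 25.2% lower.

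The tandem therefore had a different make-up at each stage of N2. acox-1.1 gave 86.5 ± 0.571% of the summed TPM of the 4 genes in embryos, 77.9 ± 6.32% in L1 larvae and 25.4 ± 4.51% in L4 larvae. acox-1.2 gave 6.25 ± 1.46%, 10.3 ± 1.08% and 37.3 ± 1.95% at the same stages, and acox-1.4 gave 0.567 ± 0.0913%, 6.81 ± 5.56% and 35.4 ± 3.48%. acox-1.3 was the smallest share at L4, at 1.79 ± 0.296%, and was 6.73 ± 1.19% in embryos. These shares were computed within each library, and stage, temperature, feeding and table cannot be told apart between L4 and the earlier stages.

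**Figure D2:**
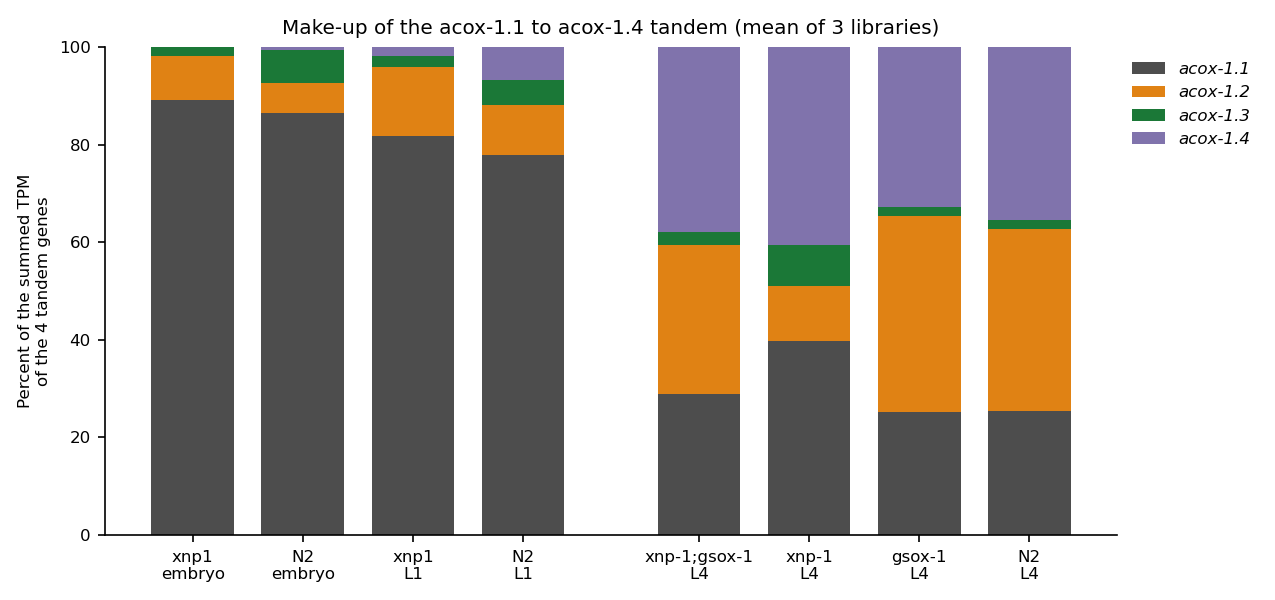
Mean share (percent) of each tandem oxidase gene in the summed TPM of the 4, in 3 libraries per group. acox-1.1 fills most of the bar in embryos and L1 larvae, while acox-1.2 and acox-1.4 together exceed it in each L4 group, and acox-1.2 is a smaller part in xnp-1 L4 larvae (11.3%) than in N2 L4 larvae (37.3%).

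In xnp1 embryos, 0 of the 8 members open to a test were called, and the 2 chosen for their fall were low. acox-1.3 had 0.734, 1.32 and 0.952 CPM in xnp1 embryos, against 5.45, 4.71 and 6.05 CPM in N2 embryos, and its fitted level was 5.35-fold lower (log2 change -2.42 ± 0.35 SE). acox-1.4 had 0, 2 and 5 counts in xnp1 embryos, against 13, 17 and 15 counts in N2 embryos. The groups did not overlap for either gene. With so few counts the fitted change of acox-1.4 (-2.82 ± 0.60 SE) was -3.92 when xnp1 replicate 3 was left out.

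The fitted differences of the other 2 tandem genes were smaller in embryos, with no test between genes. acox-1.1 had 46.7, 70.5 and 68.8 CPM in xnp1 embryos and 70.9, 86.5 and 94.8 CPM in N2 embryos (log2 change -0.44 ± 0.36 SE, adjusted p = 0.699). The 2 groups did not overlap, yet the gap between the nearest libraries was small. acox-1.2 averaged 5.02 ± 0.724 CPM in xnp1 embryos and 5.11 ± 1.79 CPM in N2 embryos (log2 change -0.02 ± 0.40 SE), with overlap. acox-1.6 was the member with the smallest p (log2 change -0.33 ± 0.17 SE, adjusted p = 0.484), and its libraries, at 49.2 to 58.1 CPM in xnp1 embryos, lay below the 65.0 to 73.6 CPM of N2 embryos. The downstream enzymes differed little, with log2 changes of -0.07 for maoc-1, -0.14 for dhs-28 and -0.30 for daf-22.

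Over the 8 tested members the median log2 change in embryos was -0.20, beside 0.035 over all tested genes, and edgeR called 1.11% of all genes. At an unadjusted p under 0.05, 0 of the 8 passed, and DESeq2 called 0 of them. The summed level of 10 intestinal marker genes ran from 1039 to 1395 CPM in xnp1 embryos and from 1810 to 2264 CPM in N2 embryos, with 0 of the 10 called and none at 0. The shift was not limited to the intestine: 6 body wall muscle markers summed to 3362 to 5023 CPM in xnp1 embryos and 5824 to 6952 CPM in N2 embryos, and 7 neuronal markers to 732.2 to 810.6 CPM in xnp1 embryos and 837.8 to 986.7 CPM in N2 embryos. The sums of 8 germline markers were higher, at 308.1 to 489.7 CPM in xnp1 embryos and 269.7 to 278.4 CPM in N2 embryos, and 0 genes of these 3 lists were called. Hypodermal sums overlapped, at 925.1 to 1078 CPM in xnp1 embryos and 810.3 to 958.6 CPM in N2 embryos. Sums of oocyte and yolk genes and of sperm genes overlapped too. The part of these markers in the members' values was not tested. In bulk RNA of whole animals, fewer cells of a type and less RNA per cell cannot be told apart.

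In L1 larvae the picked pair was again low in xnp1. acox-1.3 had 0.952, 2.35 and 2.24 CPM in xnp1 L1 larvae, against 4.80, 6.27 and 6.34 CPM in N2 L1 larvae (log2 change -1.65 ± 0.33 SE). acox-1.4 had 1.197, 1.27 and 1.55 CPM in xnp1 L1 larvae, against 9.07, 5.57 and 5.34 CPM in N2 L1 larvae (log2 change -2.31 ± 0.39 SE). No xnp1 library reached the lowest N2 library for either gene. The level of acox-1.4 in xnp1 animals was still higher in L1 larvae (44, 47 and 68 counts) than in embryos (0, 2 and 5 counts), a pair of values for which no test is given.

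For the other 8 members in L1 larvae the number called depended on the fit. With the 4 groups fitted together, 0 of 8 were called, beside 0.481% of all genes, and DESeq2 called 0, while acox-1.6 and dhs-28 had an unadjusted p under 0.05. Same-numbered L1 libraries deviated together, and a fit restricted to L1, with the replicate number as a block, called 5 of 8 lower. These were acox-1.1 (log2 change -0.54, adjusted p = 0.0240), maoc-1 (-0.39, adjusted p = 0.0129), dhs-28 (-0.39, adjusted p = 0.0159), daf-22 (-0.37, adjusted p = 0.0273) and acox-1.6 (-0.41, adjusted p = 0.0497). That fit called 8.03% of all genes lower, while blocking with embryos and L1 larvae fitted together called 0 of the 8.

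The L1 values of daf-22 show the pairing: 67.1, 123.8 and 132.4 CPM in xnp1 replicates 1 to 3, against 82.7, 185.3 and 153.0 CPM in N2 replicates 1 to 3. Replicate 1 was low in both genotypes, and each xnp1 library lay below its N2 partner although the groups overlapped. The thiolase shared this with dhs-28, which had 121.6, 162.8 and 184.1 CPM in xnp1 L1 larvae and 171.0, 221.6 and 214.6 CPM in N2 L1 larvae. The median over the 8 members was -0.38, beside 0.005 for all genes. Intestinal markers summed to 2201 to 4013 CPM in xnp1 L1 larvae and 3281 to 7131 CPM in N2 L1 larvae, with 0 of 10 called. Muscle and neuronal sums overlapped between the genotypes, as did germline sums, at 174.7 to 280.0 CPM in xnp1 L1 larvae and 119.3 to 181.0 CPM in N2 L1 larvae. The part of these markers was not tested.

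No change of the xnp1 difference between stages was called. For the 8 tested members the L1 difference minus the embryo difference ran from -0.32 for maoc-1 to 0.003 for acox-1.5 on the log2 scale, and edgeR called 0 of 8 members. Of all genes 0.0% were called (454 genes at an unadjusted p under 0.05), and DESeq2 called 3 genes, with 0 members among them.

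**Figure D3:**
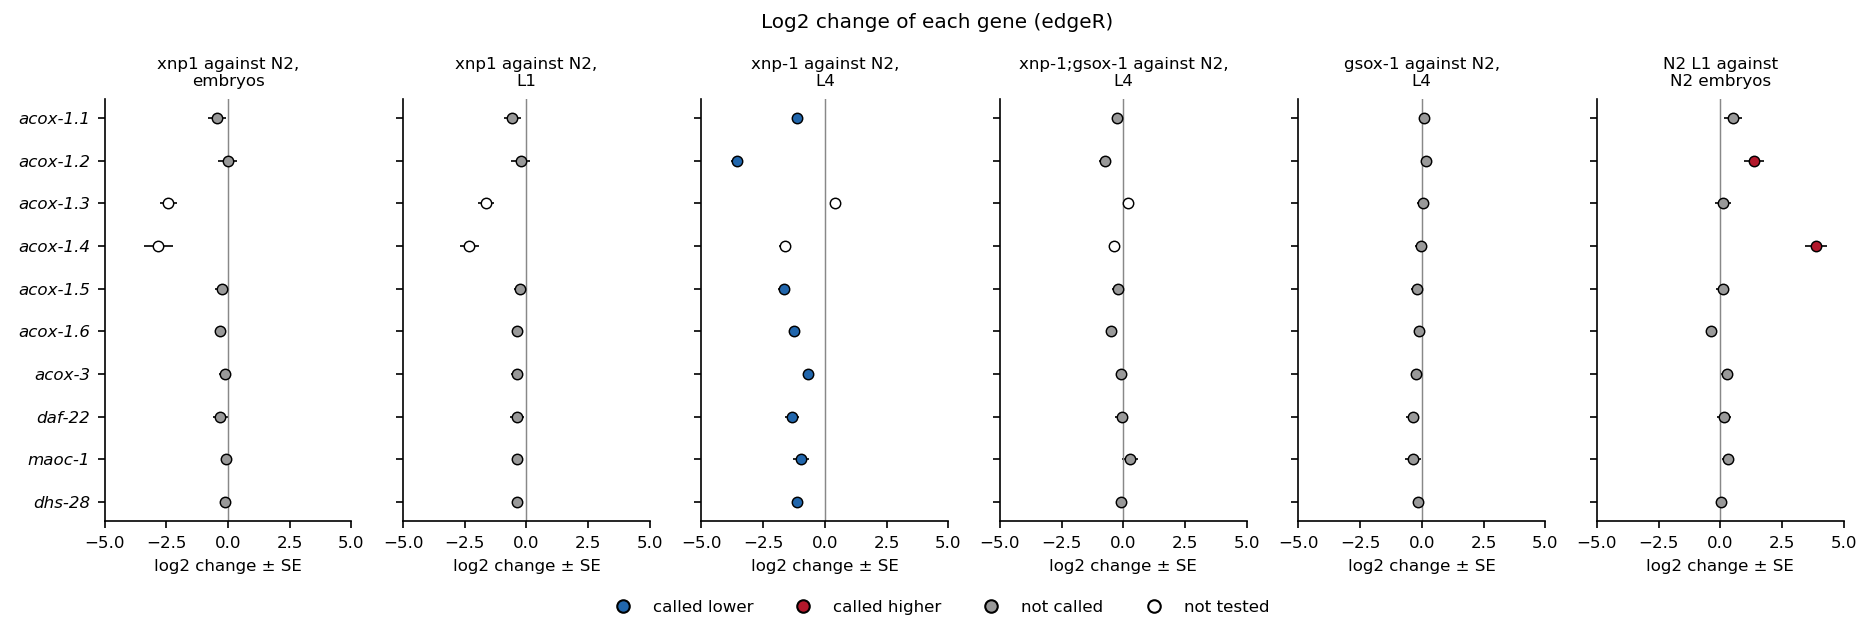
Log2 change (edgeR, bars give the SE) of each gene in 6 comparisons; blue marks genes called lower, red genes called higher, grey genes not called and white values given without a test. The white points of acox-1.3 and acox-1.4 lie left of the rest in embryos and L1 larvae, all 8 tested genes are blue in xnp-1 L4 larvae, and none is coloured in xnp-1;gsox-1 or gsox-1 L4 larvae.

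In xnp1 embryos and L1 larvae the log2 changes of all 8 tested members against N2 were below 0, with 0 called in the 4-group fit. At L4 all 8 were called lower in xnp-1 larvae than in N2, beside 25.3% of all genes lower and 23.3% higher. Their median log2 change at L4 was -1.199, against -0.16 over all genes. The L4 differences were not tested against those of the earlier stages. acox-1.2 changed most, with 11.8, 13.9 and 14.1 CPM in xnp-1 larvae, against 203.8, 118.8 and 144.8 CPM in N2 larvae, an 11.7-fold lower level (log2 change -3.55 ± 0.23 SE, adjusted p = 1.32e-06). Its 2 groups were far apart, and it passed under each alternative tried. acox-1.1 fell less, to 51.9, 56.7 and 62.6 CPM in xnp-1 larvae, against 128.5, 108.0 and 139.1 CPM in N2 larvae (log2 change -1.13 ± 0.16 SE, adjusted p = 0.000131).

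The 3 oxidase genes outside the tandem were also lower in xnp-1 L4 larvae. acox-1.5 had 24.4, 35.01 and 32.8 CPM in xnp-1 larvae and 105.3, 72.0 and 111.5 CPM in N2 larvae (log2 change -1.65 ± 0.25 SE, adjusted p = 0.000260). acox-1.6 had 14.2, 18.6 and 20.9 CPM in xnp-1 larvae and 46.0, 44.9 and 38.1 CPM in N2 larvae (log2 change -1.26 ± 0.20 SE, adjusted p = 0.000275). acox-3 changed least, with 47.8 to 68.6 CPM in xnp-1 larvae and 75.2 to 109.5 CPM in N2 larvae (log2 change -0.67 ± 0.21 SE, adjusted p = 0.0189). None of these groups overlapped. The share of all genes without overlap was not counted, and 25.3% of all genes were called lower and 23.3% higher.

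Along the later steps the 3 enzymes fell by similar amounts. dhs-28 had 120.0, 123.8 and 147.4 CPM in xnp-1 L4 larvae and 270.8, 266.1 and 318.8 CPM in N2 larvae (log2 change -1.13 ± 0.16 SE, adjusted p = 0.000126). daf-22 had 95.3, 83.8 and 99.2 CPM in xnp-1 larvae and 300.7, 192.9 and 211.9 CPM in N2 larvae (log2 change -1.34 ± 0.28 SE, adjusted p = 0.00185). maoc-1 had 62.3, 50.0 and 58.3 CPM in xnp-1 larvae and 151.1, 76.1 and 103.5 CPM in N2 larvae (log2 change -0.96 ± 0.33 SE, adjusted p = 0.0297). The spread of maoc-1 among N2 libraries was wide. Without N2 replicate 1 its change was -0.66 (adjusted p = 0.120), and it also missed the threshold without xnp-1 replicate 1, 2 or 3 (adjusted p = 0.0577, 0.0950 and 0.0728). acox-3 missed it without N2 replicate 1 (adjusted p = 0.0686), xnp-1 replicate 1 (0.0851) or xnp-1 replicate 2 (0.0617).

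The picked pair parted at L4. acox-1.4 had 44.7, 48.3 and 50.1 CPM in xnp-1 larvae, against 199.5, 119.9 and 124.1 CPM in N2 larvae (log2 change -1.63 ± 0.23 SE). acox-1.3 had 11.1, 7.98 and 10.7 CPM in xnp-1 larvae, against 7.67, 6.29 and 8.12 CPM in N2 larvae (log2 change 0.43 ± 0.23 SE). The acox-1.4 groups were apart and the acox-1.3 groups overlapped. Within the tandem the share of acox-1.3 was 8.30 ± 1.57% in xnp-1 larvae and 1.79 ± 0.296% in N2 larvae, while acox-1.2 gave 11.3 ± 0.602% in xnp-1 larvae and 37.3 ± 1.95% in N2 larvae. The share of acox-1.4 was 40.6 ± 0.826% in xnp-1 larvae and 35.4 ± 3.48% in N2 larvae.

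Markers of other tissues and of age differed between the same L4 libraries. The summed level of 9 oocyte and yolk genes ran from 17490 to 29890 CPM in xnp-1 larvae and from 98.5 to 671.8 CPM in N2 larvae, with 9 of 9 higher. col-19, a collagen of the adult cuticle, was at 2533 ± 121 CPM in xnp-1 larvae, against 26.1 ± 31.1 CPM in N2 larvae. Of 10 hypodermal markers 4 were lower and 1 higher. The lower ones were the collagen genes rol-6, bli-1, dpy-7 and dpy-13 (log2 change -4.57, -4.51, -4.83 and -3.955). Of 8 germline markers 7 were higher. Of 10 intestinal markers 4 were lower, among them the gut esterase ges-1 (-1.36, adjusted p = 2.05e-05) and the gut transcription factor elt-2 (-0.62, adjusted p = 0.00410), and their sums were 3704 to 3902 CPM in xnp-1 larvae and 4081 to 6022 CPM in N2 larvae. Of 7 neuronal markers 4 were lower and 1 higher, at a median log2 change of -0.73, against -0.50 for the intestinal list. Of 6 sperm markers 2 were lower and 0 higher, and of 6 body wall muscle markers 0 were called. The part of age, germline content, intestine and other tissues in the members' lower levels was not tested, and within these groups they cannot be told apart from genotype.

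Counts of related lists in xnp-1 L4 larvae are to be read against 25.3% of all genes lower and 23.3% higher, at a median log2 change of -0.16. Of 19 other peroxisomal and ascaroside enzymes, 12 were lower and 0 higher, with a median log2 change of -0.82. They included cest-1.1, a carboxylesterase of ascaroside assembly (-3.45, adjusted p = 9.59e-06), cest-9.2 of the same family (-1.80, adjusted p = 0.000116), nlt-1, a lipid transfer gene (-1.37, adjusted p = 7.87e-05), and the peroxisomal catalase gene ctl-2 (-1.19, adjusted p = 0.000479). cest-1.1 was at a low level, with 0.227 ± 0.0594 CPM in xnp-1 larvae and 2.51 ± 0.626 CPM in N2 larvae. Of 5 peroxisomal membrane transporters 3 were lower, led by the ABC transporter gene pmp-5 (-1.84, adjusted p = 1.15e-05), and pmp-3 was higher (0.94, adjusted p = 0.0152). Peroxins, which build the organelle, went both ways: 5 of 11 were lower, such as prx-3 (-1.401) and prx-1 (-1.03), and prx-14 (1.09) and prx-10 (0.74) were higher.

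Mitochondrial beta-oxidation, the parallel route for shorter chains, had 9 of 19 genes lower and 1 higher, at a median of -0.58. The hydratase gene ech-6 (-1.303, adjusted p = 0.00129) and the carnitine palmitoyltransferase gene cpt-4 (-1.47, adjusted p = 0.00193) were among the lower ones. Of 7 regulators of fat catabolism, the nuclear receptor gene nhr-80 was lower (-0.83, adjusted p = 0.00434) and nhr-66 (0.93, adjusted p = 0.0108) and nhr-49 (0.64, adjusted p = 0.0396) were higher. Of 8 ascaroside receptors 2 passed the filter at L4, and daf-37 was lower (-0.82, adjusted p = 0.0295).

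**Figure D4:**
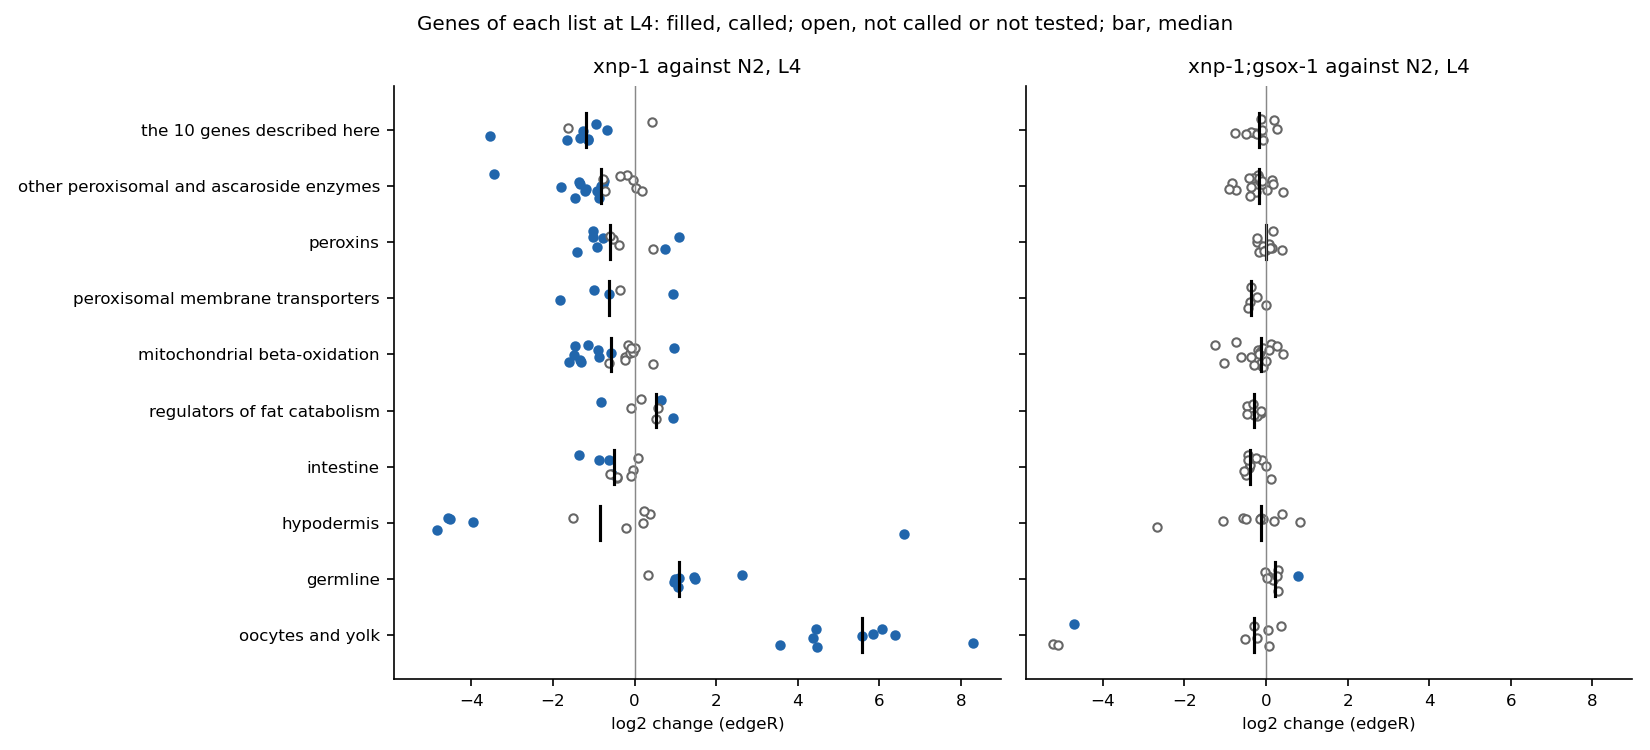
Log2 change (edgeR) of each gene of each list at L4, xnp-1 against N2 on the left and xnp-1;gsox-1 against N2 on the right; filled points were called, open points were not called or not tested, and the bar is the median of the list's tested genes. On the left the members centre on -1.199 (8 tested) and the oocyte and yolk genes on 5.58; on the right the members centre on -0.17.

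The same lists moved little in xnp1 embryos. Of the 6 related lists 1 gene was called, the peroxisomal ABC transporter gene pmp-4, with 12.3 ± 0.559 CPM in xnp1 embryos and 23.3 ± 3.97 CPM in N2 embryos (log2 change -0.93 ± 0.17 SE, adjusted p = 0.0172), while 0.684% of all genes were lower. pmp-4 was higher in N2 L1 larvae than in N2 embryos (1.22, adjusted p = 0.000107). Against 34.3% of all genes higher and 25.2% lower in N2 L1 larvae, 11 were higher among the 19 other peroxisomal and ascaroside enzymes, with 2 lower. They included cest-1.1 (4.13, adjusted p = 9.36e-05) and acl-7, an acyltransferase gene (2.56, adjusted p = 0.000281). The level of cest-1.1 was low, at 2.28 ± 1.12 CPM in N2 L1 larvae and 0.123 ± 0.0411 CPM in N2 embryos. Of 6 ascaroside receptors that passed the filter 5 were higher in N2 L1 larvae, such as srx-43 (4.92, adjusted p = 3.54e-06) and daf-38 (1.88, adjusted p = 0.000547), and of 11 peroxins 4 were lower.

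In xnp-1;gsox-1 L4 larvae no tested member passed against N2 with the 4 groups fitted together. edgeR called 0 of 8, beside 1.04% of all genes, with a median log2 change of -0.17. acox-1.2 had 110.9, 80.9 and 84.8 CPM in xnp-1;gsox-1 larvae, against 203.8, 118.8 and 144.8 CPM in N2 larvae (log2 change -0.76 ± 0.21 SE, adjusted p = 0.137), and the groups did not overlap. DESeq2, which called 2.82% of genes lower, gave acox-1.2 an adjusted p of 0.0415. Same-numbered libraries of these 2 groups deviated together, and a fit of them alone with the replicate block called acox-1.2 (-0.71, adjusted p = 0.00501) and acox-1.6 (-0.47, adjusted p = 0.0364) lower, along with 6.44% of all genes. At an unadjusted p under 0.05, those same 2 members passed with the 4 groups fitted together.

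Within the xnp-1;gsox-1 group, replicate 1 held the highest value of every member except dhs-28. That library also stood apart over all filtered genes on the second principal component, at 104.8 against 10.6 and 4.6 for replicates 2 and 3. acox-1.4 had 144.2, 95.2 and 105.0 CPM in replicates 1 to 3. maoc-1 had 213.7, 100.1 and 87.9 CPM there and daf-22 had 335.2, 180.2 and 158.8 CPM. dhs-28 had 264.3, 261.3 and 264.8 CPM in the same libraries, so the step between those 2 enzymes did not share the high value. The picked genes had log2 changes against N2 of 0.21 ± 0.23 SE (acox-1.3) and -0.36 ± 0.22 SE (acox-1.4), with overlapping groups. The oocyte and yolk genes summed to 75.4 to 196.7 CPM in xnp-1;gsox-1 larvae, and col-19 was at 4.11 ± 3.77 CPM.

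Set against xnp-1 larvae, all 8 tested members were higher in xnp-1;gsox-1 larvae, beside 22.3% of all genes higher and 21.9% lower. This contrast shares its xnp-1 libraries with the one above. acox-1.2 averaged 92.2 ± 16.3 CPM in xnp-1;gsox-1 larvae and 13.3 ± 1.26 CPM in xnp-1 larvae (log2 change 2.79 ± 0.23 SE, adjusted p = 5.34e-06). daf-22 averaged 224.7 ± 96.3 CPM in xnp-1;gsox-1 larvae and 92.8 ± 7.98 CPM in xnp-1 larvae (1.28 ± 0.27 SE, adjusted p = 0.00286), and acox-3 was the weakest (0.59 ± 0.21 SE, adjusted p = 0.0390). The acox-3 call was lost in 9 of 13 alternatives: in the fit of these 2 groups alone with the replicate block (adjusted p = 0.0511) or without it (0.0594), with DESeq2 (0.0624), with its size factors in edgeR (0.0618), with no filter on low counts (0.0654), and without xnp-1;gsox-1 replicate 1 (0.104) or 2 (0.0557) or xnp-1 replicate 1 (0.148) or 2 (0.108). The same marker groups moved here too: 9 of 9 oocyte and yolk genes were lower in xnp-1;gsox-1 larvae and col-19 was lower (log2 change -9.26, adjusted p = 0.00101), and their part was not tested.

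No member was called in gsox-1 L4 larvae against N2. edgeR and DESeq2 called 0 of 10, beside 0.0229% of all genes by edgeR, and 0 of 10 had an unadjusted p under 0.05. The 10 include acox-1.3 and acox-1.4, whose p-values against N2 are not independent of their selection. Log2 changes ran from -0.37 ± 0.32 SE for maoc-1 to 0.17 ± 0.21 SE for acox-1.2. acox-1.4 averaged 142.8 ± 6.91 CPM in gsox-1 larvae and 147.8 ± 44.8 CPM in N2 larvae, and acox-1.3 averaged 7.61 ± 1.403 CPM in gsox-1 larvae and 7.36 ± 0.951 CPM in N2 larvae. Against gsox-1 larvae, xnp-1;gsox-1 larvae had 0 of 10 members called by edgeR (0.652% of all genes). acox-1.1 and acox-1.2 had an unadjusted p under 0.05 there, and DESeq2, with 1.12% of genes lower, called acox-1.2 (log2 change -0.92, adjusted p = 0.00721).

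The interaction of the 2 genotypes at L4 was tested as the xnp-1 difference within gsox-1 larvae minus that within N2 background. It shares its xnp-1 libraries with the contrasts of xnp-1 with N2 and with xnp-1;gsox-1, so it is not independent of them. It was positive and called for 7 of 8 members, beside 17.2% of all genes with a positive and 16.1% with a negative call. acox-1.2 led (2.62 ± 0.30 SE, adjusted p = 0.000189), and acox-3 just missed the threshold (0.80 ± 0.29 SE, adjusted p = 0.0543) but passed in 5 of 17 alternatives. These were the replicate block with all 4 groups kept (0.0436), library totals as scaling (0.0478), and leaving out gsox-1 replicate 3 (0.0385), N2 replicate 2 (0.0430) or xnp-1 replicate 3 (0.0470). acox-1.1 (adjusted p = 0.0187) and acox-1.6 (0.0267) passed, but each lost its call without 1 of several libraries. For acox-1.1 these were xnp-1;gsox-1 replicate 3 (0.0525), gsox-1 replicate 1 (0.0591) and xnp-1 replicate 1 (0.0584). For acox-1.6 they were gsox-1 replicates 1 (0.0653) and 2 (0.0715), N2 replicates 1 (0.0518) and 2 (0.0548) and xnp-1 replicate 1 (0.0686).

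The genes around the tandem were examined because the 2 picked oxidases are adjacent. Within 25 kb of it lie 19 other genes, of which 15 passed the filter in the embryo and L1 table. In xnp1 embryos 0 were lower and 1 was higher, fkb-8, a gene of the peptidyl-prolyl isomerase family 20424 bases upstream of acox-1.1 (log2 change 1.34 ± 0.22 SE, adjusted p = 0.0117). WBGene00014864, 4802 bases upstream of acox-1.1, had a log2 change of -1.78 ± 0.51 SE in xnp1 embryos (adjusted p = 0.132). Its change in xnp1 L1 larvae was -1.22 ± 0.43 SE (adjusted p = 0.512). In embryos fbxa-140 (1.07, adjusted p = 0.0838) and F08A8.8 (1.63, adjusted p = 0.288) went the other way without a call. F08A8.5, which lies 1322 bases beyond acox-1.4, had a log2 change of -0.34 ± 0.33 SE there (adjusted p = 0.745). In xnp1 L1 larvae 0 of 15 were called. The 15 had a median log2 change of 0.26 in embryos and 0.21 in L1 larvae. At L4, 3 of 17 were higher and 4 lower in xnp-1 larvae than in N2, beside the 23.3% higher and 25.3% lower of all genes; the lower ones included F08A8.8 (-1.62, adjusted p = 0.00199), which overlaps acox-1.4.

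Across the 12 embryo and L1 libraries, the genes whose log2 CPM followed acox-1.4 most closely among 12323 genes were nhr-80 (Pearson r = 0.98), ugt-12 (0.97) and glb-16 (0.97). For acox-1.3 they were F56A4.3 (0.95), rpi-1 (0.93) and slc-17.6 (0.92). Across the 12 L4 libraries they were pars-1 (0.99), K11H12.11 (0.99) and dgk-2 (0.99) for acox-1.4, and Y66D12A.7 (0.91), F56C11.5 (0.91) and JC8.7 (0.89) for acox-1.3. These likenesses describe the libraries, which fall into 4 groups per table.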

How the data were processed

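The authors deposited raw counts per gene for 24 poly(A) libraries, with no normalization. Per the file headers, featureCounts 2.0.1 counted fragments in embryos and L1 larvae (minimum overlap 60 bases) and featureCounts 2.0.6 counted reads at L4, both by strand, with a mapping quality of at least 10, over the WS280 canonical gene set. The handling of multi-mapped reads beyond that is not given in the sources used here. A further deposited table, of 12 columns and small RNA samples, was not used here.

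Genes passing filterByExpr (17687 in embryos and L1 larvae, 17492 at L4) were scaled by TMM and tested with edgeR 4.0.16 in R 4.3.3 (4-group design, robust quasi-likelihood F test, two-sided, Benjamini-Hochberg adjusted p under 0.05 over all of them). TPM was computed from the listed gene lengths. DESeq2 1.42.0, other scalings, no filter, pairwise fits, replicate blocks and left-out libraries were alternatives. Members and gene lists were chosen with earlier results of these data known. From the lists, up to 4 genes per comparison with the smallest adjusted p were eligible to be named, and col-19 was followed through all L4 groups. The p-values rest on the spread between libraries that the labels call biological replicates, which may be technical. The fits were tested on simulated data.

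Replicate numbers were taken to pair groups where all 3 same-numbered libraries deviated together (correlation over 0.1). This held for L1 larvae (0.785, 0.505 and 0.712), and at L4 for xnp-1;gsox-1 with N2 (0.548, 0.319 and 0.421), xnp-1 with N2 (0.236, 0.158 and 0.151) and xnp-1;gsox-1 with xnp-1 (0.271, 0.136 and 0.154). It did not hold for embryos (0.031, 0.078 and -0.06). At L4 it did not hold for any pair with gsox-1. The values were -0.081, -0.41 and -0.262 with N2, -0.026, -0.237 and -0.014 with xnp-1;gsox-1, and 0, -0.191 and 0.039 with xnp-1.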

Additional observations from a re-analysis of the deposited data

Results flagged for a closer look

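The xnp-1 difference at L4 differed between the gsox-1 and the N2 background, by the interaction test of edgeR, for 7 members. The log2 interaction was 2.62 for acox-1.2, 1.64 for daf-22, 1.62 for acox-1.5, 1.61 for maoc-1, 1.15 for dhs-28, 0.89 for acox-1.6 and 0.78 for acox-1.1. In each case the mean of the xnp-1 libraries was the lowest of the 4 groups. The same xnp-1 libraries enter the contrasts with N2 and with xnp-1;gsox-1, so the interaction is not independent of those. The adult collagen gene col-19 separated the same libraries, at 4.11 ± 3.77 CPM in xnp-1;gsox-1 larvae, 2533 ± 121 CPM in xnp-1 larvae, 5.03 ± 7.20 CPM in gsox-1 larvae and 26.1 ± 31.1 CPM in N2 larvae (SD, n = 3 each), and its part in these values was not tested.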

How the results depend on the processing

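Of 1380 values of single members under the alternatives, 1279 kept their direction and, where tested, their side of the threshold. Another 60, untested or past the threshold in neither fit, had the other sign. Of the rest, 25 lost a call, 15 gained one and 1 untested value moved (acox-1.4 in embryos without xnp1 replicate 3). No called value changed sign. Untested values of acox-1.3 and acox-1.4 counted as moved only where the shift reached the larger SD of log2 CPM of the compared groups. For the interaction and the stage difference no such limit was set, so their untested values could not count as moved. The L1 count went to 5 of 8 with the replicate block in a fit restricted to L1. The count for xnp-1;gsox-1 against N2 went to 2 with the replicate block in a fit of those groups and to 1 with DESeq2, and that against gsox-1 to 1 with DESeq2; the cause was not tested. The block moved no other count of members by over 1.5 times. Leaving out each library gave 1 to 3 members for N2 L1 larvae against N2 embryos, 6 to 8 for xnp-1 against N2 at L4, 7 to 8 for xnp-1;gsox-1 against xnp-1, 5 to 8 for the interaction and 0 for the other comparisons. acox-1.4 in embryos rested on 7 counts in xnp1, against 45 in N2, and its fitted change ran from -3.92 to -2.31 over the alternatives. Embryo levels of acox-1.4 are limited by depth. Counts over all genes moved by over 1.5 times in 6 of the comparisons. With DESeq2, genes called were 590 against 197 with edgeR in xnp1 embryos, 229 against 85 in xnp1 L1 larvae, 3 against 0 for the difference between those stages, 814 against 182 for xnp-1;gsox-1 against N2, 518 against 114 for xnp-1;gsox-1 against gsox-1 and 55 against 4 for gsox-1 against N2. Fits of the compared groups alone gave 676 with the replicate block and 580 without it in embryos, 2002 and 13 in L1 larvae, 1637 and 1 for xnp-1;gsox-1 against N2, 57 and 23 against gsox-1, and 0 and 1 for gsox-1 against N2. The block with all groups kept gave 337 in embryos and 2 for gsox-1 against N2. Leaving out a library gave 53 to 157 in embryos, 35 to 79 in L1 larvae, 44 to 187 for xnp-1;gsox-1 against N2, 38 to 125 against gsox-1 and 2 to 3 for gsox-1 against N2.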
